A study of Mus musculus with 5 samples.

Results

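The myeloid barcodes of the ovariectomized mouse mammary gland were taken from 5 droplet-based single-cell RNA libraries as cell barcodes that carried macrophage and dendritic cell transcripts and stayed under set limits for those of stroma, epithelium and T cells. A barcode was a member when its raw unique molecular identifier (UMI) counts of Lyz2, C1qa, C1qb, C1qc, Ctss, Alox5ap and Tyrobp summed to at least 10, when Col1a1, Col1a2, Col3a1 and Dcn were below 50 and Epcam and Krt18 below 5 per 10000 UMIs, when Cd3d, Cd3e and Cd3g had 0 UMIs, and when mitochondrial genes held at most 10% of UMIs. Of 14344 barcodes, 221 met the rule, or 1.54% (exact binomial 95% interval 1.35 to 1.76%). The marker sum alone was passed by 379 barcodes, of which 106 failed the epithelial limit, 38 the collagen limit, 33 the Cd3 limit and 0 the mitochondrial limit. Because the members were chosen by their measured UMIs of these genes, their marker levels are a description and not a result. At the threshold, 15 barcodes that met the other limits had 5 to 9 marker UMIs and 19 members had 10 to 15.

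All libraries came from the fourth mammary glands of female BALB/cj mice, 30 weeks old, whose ovaries had been removed 20 weeks before a 1-week treatment. OVX animals received dimethyl sulfoxide vehicle. OVX_E2 animals received a daily injection of 1 µg 17β-estradiol. OVX_E2_P4 animals received the same estradiol with 0.1 mg progesterone daily. OVX_E2_PBDE and OVX_E2_P4_PBDE animals received these hormones and food with polybrominated diphenyl ethers (PBDEs), a family of flame retardants, namely BDE-47 at 7.1, BDE-100 at 0.4 and BDE-153 at 0.9 mg/kg. The other groups ate matched food with dimethyl sulfoxide. The lymph node was removed before digestion, red cells were lysed, dead cells were depleted and no cell type was sorted. Each treatment had 1 library, and how many animals went into it was not given in the sources used here, so there was no replicate error and no test. Intervals below cover counting error only. Both PBDE libraries carry library numbers apart from those of the other 3, so exposure and any difference in handling cannot be told apart.

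Mammary macrophages lie within the ductal epithelium and in the surrounding fat and connective tissue, where they engulf dying cells, remodel matrix and take part in ductal growth and involution. Tissue macrophages secrete C1q, which starts the classical complement pathway, and digest their cargo in lysosomes. Dendritic cells load peptides on major histocompatibility complex (MHC) class II molecules for T cells, and monocytes enter from blood and can become either cell.

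The members were 65 in OVX, 24 in OVX_E2, 43 in OVX_E2_P4, 61 in OVX_E2_PBDE and 28 in OVX_E2_P4_PBDE. They held 353990, 195133, 237562, 463022 and 139629 UMIs in that order, with medians of 5055, 7198.5, 4823, 6927 and 4655 per member. Levels are given as counts per 1000000 UMIs of the members of a library (CPM), which is a scale within the members only. A count of 0 allowed up to 8.47 CPM in OVX, 15.4 in OVX_E2, 12.6 in OVX_E2_P4, 6.48 in OVX_E2_PBDE and 21.5 in OVX_E2_P4_PBDE (3 counts). Pairs of libraries shared 3 to 15 barcode sequences, and 0 members were shared.

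C1q, a defining transcript of macrophages, was counted in a part of the members. Of the 221, 155 (70.1%) had 0 UMIs of C1qa, C1qb and C1qc together, 5 had 1 to 4 and 61 (27.6%) had at least 5. Of these 61, 19 were in OVX, 7 in OVX_E2, 16 in OVX_E2_P4, 16 in OVX_E2_PBDE and 3 in OVX_E2_P4_PBDE. These genes are part of the rule, so the counts describe the members, and a count of 0 at these depths limits barcodes with a UMI and not cells that express C1q. The 3 genes lie side by side on the minus strand of chromosome 4 (mm10; C1qb chr4:136880129-136886187, C1qc chr4:136889804-136893065, C1qa chr4:136895917-136898803). Their counts followed each other over the 221 members, with Pearson r of 0.992 for C1qa and C1qb and 0.984 for C1qa and C1qc, a description across cells that share depth and library.

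The general myeloid markers were far more widely spread. Tyrobp, the adaptor of activating myeloid receptors, had a UMI in 92.8% of members thinned to 3000 UMIs, against 1.71% of fibroblast barcodes thinned alike. Lyz2, lysozyme M, had 83.7% against 4.65%. Ctss, the cathepsin that trims the class II invariant chain, had 80.5% against 0.823%. All 3 are genes of the rule, which sets their high shares. Alox5ap, the helper of 5-lipoxygenase in leukotriene synthesis, had 68.8% against 0.544%, and C1qa 28.1% against 0.699%. Both are genes of the rule too, so their contrast with fibroblast barcodes is also set by the choice of members. The markers that the rule did not use were as broad, with Cd74, the invariant chain, in 95.02% against 10.5% and H2-Aa, a class II alpha chain, in 91.9% against 4.77%. Apoe, a lipid carrier that macrophages and other cells secrete, did not separate the sets so by this share, at 47.5% of members and 41.4% of fibroblast barcodes. Its level did differ, at 4974 CPM in members and 544 in fibroblast barcodes. Unthinned, the shares were 97.7% for Tyrobp, 91.4% for Lyz2, 91.9% for Ctss, 76.0% for Alox5ap, 29.0% for C1qa, 95.02% for Cd74 and 92.8% for H2-Aa. The median depth was between 4269 and 7071 UMIs in fibroblast barcodes of the 5 libraries. By CPM over all members, Cd74 (25532) ranked 2 of all genes, after Tmsb4x, and H2-Aa (12199) ranked 4.

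The promoters of C1q and class II genes are shown because both describe the members, C1q as a part of the rule and class II as genes that it did not use. The windows are the 250 bases before the RefSeq start (GRCm38.p6), and 4 of the 6 genes looked up had one. The C1qb window is chr4:136886201-136886450 and the C1qc window chr4:136892915-136893164, both on the minus strand. Capitals mark ACTTCCT, the reverse complement of the core AGGAAGT of sites bound by PU.1, the transcription factor of myeloid cells encoded by Spi1. It lay at -53 to -47 in C1qb and -195 to -189 in C1qc relative to the RefSeq start. The C1qc window overlaps the gene as given above from GENCODE, whose start lies further upstream, so its positions depend on the annotation.
C1qb: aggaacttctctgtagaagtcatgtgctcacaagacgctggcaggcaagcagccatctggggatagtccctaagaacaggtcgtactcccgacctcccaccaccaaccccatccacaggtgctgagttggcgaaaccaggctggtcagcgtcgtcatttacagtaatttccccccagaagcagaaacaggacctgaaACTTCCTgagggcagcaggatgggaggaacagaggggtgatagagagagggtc
C1qc: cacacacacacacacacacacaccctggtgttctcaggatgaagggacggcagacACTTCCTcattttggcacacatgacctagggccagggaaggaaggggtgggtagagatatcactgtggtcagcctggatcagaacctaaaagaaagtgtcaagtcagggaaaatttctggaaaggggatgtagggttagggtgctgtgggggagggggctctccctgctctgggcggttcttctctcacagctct
On either strand AGGAAGT was in 7.69% of all 32851 windows of this length. The H2-Aa window is chr17:34287824-34288073 on the minus strand and the H2-Eb1 window chr17:34305617-34305866 on the plus strand. Capitals mark CTGATTGG, the Y box of class II promoters that NF-Y binds, at -51 to -44 in H2-Aa and -62 to -55 in H2-Eb1.
H2-Aa: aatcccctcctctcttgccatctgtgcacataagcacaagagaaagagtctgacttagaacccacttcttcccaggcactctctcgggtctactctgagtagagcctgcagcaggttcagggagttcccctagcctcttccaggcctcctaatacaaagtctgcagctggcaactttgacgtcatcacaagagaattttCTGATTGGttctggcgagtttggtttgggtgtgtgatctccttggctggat
H2-Eb1: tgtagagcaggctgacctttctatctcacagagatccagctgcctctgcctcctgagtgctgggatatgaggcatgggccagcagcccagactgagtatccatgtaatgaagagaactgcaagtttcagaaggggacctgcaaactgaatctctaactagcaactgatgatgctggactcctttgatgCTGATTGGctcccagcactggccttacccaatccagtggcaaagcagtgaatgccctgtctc
CTGATTGG, on either strand, was in 3.83% of the windows. Each window held 1 match of the motif shown, and a match is a string of letters and not a measured site. Spi1 itself was at 263 CPM in OVX, 231 in OVX_E2, 290.4 in OVX_E2_P4, 276 in OVX_E2_PBDE and 172 in OVX_E2_P4_PBDE, present in every library.

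Clustering of the 221 members gave 4 sub-clusters, described here by the genes that set them apart. The macrophage-like cluster held 53 barcodes, and 52 of the 61 barcodes with at least 5 C1q UMIs were in it. Its leading genes were Vcam1, Ms4a7, Acp5, Mmp12, C1qb, Hpgds, C1qc, C1qa, Cd72 and Itgb5. C1qa was at 4420 CPM there and lower in the clusters described below. It was at 367 in the Retnla and Lyz1 cluster, 11 in the Cd209a and Plac8 cluster and 170 in the mixed cluster. Apoe was at 19444 CPM in the macrophage-like cluster, against 2321, 806 and 494 in the same order. Trem2, a lipid-sensing receptor, was at 359 there, against 50.8, 10.9 and 14.9. Mrc1, the mannose receptor of stromal resident macrophages, was at 13.4 CPM in it and at 289 in the second cluster.

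That second cluster, of 42 barcodes, was led by Fcna, Cd209g, Lyz1, Ccl8, Retnla, F10, Ccl24, Fcrls, Fn1 and Cxcl3. Retnla, a secreted resistin-like protein of alternatively activated macrophages, stood at 19426 CPM against 10.1 in the macrophage-like cluster. Lyz1 was at 7948 CPM and Lyz2 at 20617. Lyz1 and Lyz2 are near-identical neighbours on chromosome 10, so reads may have been split between them and their separate levels are uncertain. Over all members, 48 had at least 5 Retnla UMIs and 30 at least 5 Lyz1 UMIs, of which 29 were the same barcodes, while 6 had at least 5 UMIs of both C1q and Retnla. Fcna, Ccl8 and Cd209g rested on 1 barcode of OVX_E2_PBDE, which held 30 of 31, 48 of 50 and 21 of 26 of their UMIs.

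The third cluster, of 65 barcodes, was led by Id1, Fabp4, Sirpb1c, Lrg1, Gm15987, Plac8, Cd209a, Cd209d, Ly6c2 and Clec10a. It held dendritic genes (Cd209a 1082 CPM, Clec10a 197) beside monocyte genes (Plac8 1339, Ly6c2 363), and was given no cell type name. Cd209a and C1q did not meet, since 36 members had at least 5 Cd209a UMIs and 0 of them had at least 5 C1q UMIs. Id1, Fabp4 and Lrg1 came mainly from 1 barcode of OVX_E2_PBDE with 33, 74 and 29 of their UMIs, which also had 104 of Igfbp7, 11 of Pecam1 and 7 of Cdh5, genes of endothelial cells.

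The last cluster, of 61 barcodes, was mixed and was not named. Its leading genes were Gzma, Krt17, Cdca3, Mzb1, Hist1h2ap, Clec9a, Cxx1b, Jchain, Gzmb and Krt14, which belong to natural killer (NK) cells, plasma cells, basal epithelium, dividing cells and type 1 dendritic cells. Krt17 and Krt14, keratins of basal cells, came mainly from 1 barcode of OVX_E2_PBDE with 27 of 30 and 42 of 53 UMIs and 31 marker UMIs. Clec9a, a receptor of type 1 dendritic cells for dead cells, was at 59.6 CPM there against 8.19 in the third cluster and 0 in the other two. Irf8, the transcription factor of that lineage, was at 513 CPM against 31.3 to 148 elsewhere.

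**Figure D1:**
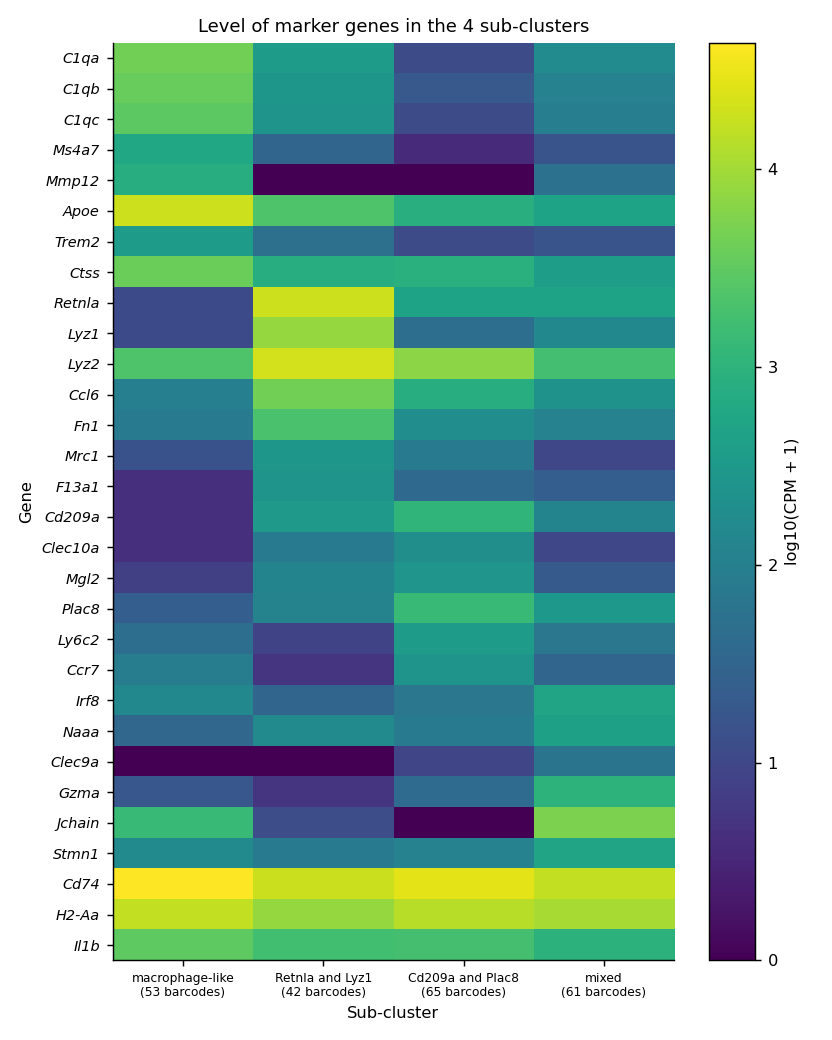
Levels of marker genes (rows) in the 4 sub-clusters of the 221 myeloid barcodes (columns), as log10(CPM + 1) of UMIs summed over each cluster. C1q genes, Ms4a7 and Mmp12 are high in the macrophage-like column, Retnla, Lyz1 and Ccl6 in the next, Cd209a and Plac8 in the third, whereas Cd74 and H2-Aa are high in all 4.

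By library, the macrophage-like cluster had 15, 6, 16, 13 and 3 barcodes in the order OVX, OVX_E2, OVX_E2_P4, OVX_E2_PBDE, OVX_E2_P4_PBDE. The Retnla and Lyz1 cluster had 16, 3, 4, 12 and 7. The Cd209a and Plac8 cluster had 28, 3, 15, 15 and 4, and the mixed cluster 6, 12, 8, 21 and 14. These numbers are printed as a description, because genes that define the clusters also differed between libraries.

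**Figure D2:**
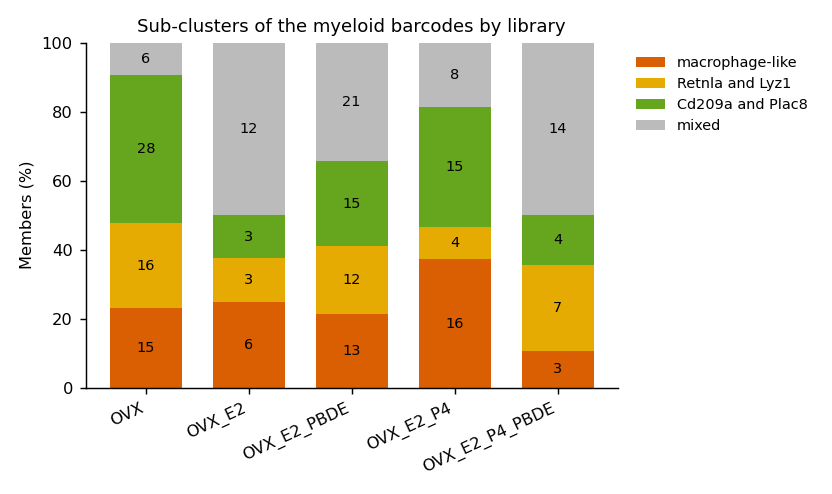
Stacked bars give the percentage of the members of each library (y axis) in each of the 4 sub-clusters, with the number of barcodes printed in each segment. The mixed cluster is the largest segment in OVX_E2 (12 of 24), OVX_E2_PBDE (21 of 61) and OVX_E2_P4_PBDE (14 of 28) and the smallest in OVX (6 of 65).

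The share of myeloid barcodes was lower in OVX_E2 than in OVX. It was 2.09% (95% interval 1.62 to 2.66%) in OVX, 1.07% (0.690 to 1.60%) in OVX_E2, 1.38% (1.00 to 1.86%) in OVX_E2_P4, 1.73% (1.32 to 2.21%) in OVX_E2_PBDE and 1.19% (0.790 to 1.71%) in OVX_E2_P4_PBDE. At a marker sum of at least 20 the OVX_E2_P4_PBDE share was 0.678%, below its interval. These shares include the mixed cluster, which carried genes of other cell types. That cluster held 0.193% of barcodes in OVX, 0.537% in OVX_E2, 0.257% in OVX_E2_P4, 0.594% in OVX_E2_PBDE and 0.593% in OVX_E2_P4_PBDE. The difference between OVX_E2 and OVX was -1.02 percentage points (-1.70 to -0.312), beyond counting error. The other 3 differences were within it, at 0.309 points (-0.335 to 0.921) for OVX_E2_P4 minus OVX_E2, 0.650 (-0.00775 to 1.27) for OVX_E2_PBDE minus OVX_E2 and -0.197 (-0.817 to 0.451) for OVX_E2_P4_PBDE minus OVX_E2_P4. The epithelial limit removed 10 of 94 barcodes that passed the marker sum in OVX, 17 of 45 in OVX_E2, 40 of 86 in OVX_E2_P4, 14 of 92 in OVX_E2_PBDE and 25 of 62 in OVX_E2_P4_PBDE. The denominator moved at the same time, because barcodes that passed the epithelial gate were 10.0% of OVX and 50.7% of OVX_E2. Among barcodes below the epithelial limit, members were 2.40% in OVX, 2.62% in OVX_E2, 6.14% in OVX_E2_P4, 3.03% in OVX_E2_PBDE and 3.51% in OVX_E2_P4_PBDE. The order of OVX and OVX_E2 turned, with overlapping intervals (1.86 to 3.05% and 1.68 to 3.87%). The order does not turn without the mixed cluster. That cluster held 6 of the 65 members among 2705 such barcodes in OVX, and 12 of 24 among 917 in OVX_E2. On this denominator the intervals of OVX_E2_P4 (4.48 to 8.19%) and OVX_E2 (1.68 to 3.87%) did not overlap. Fibroblast barcodes, which this denominator includes, were 18.4% of all barcodes in OVX_E2_P4 and 36.3% in OVX_E2. Members per T cell barcode were 3.31 and 3.00, from 13 and 8 T cell barcodes. More myeloid cells and fewer fibroblasts cannot be told apart on this denominator. Fewer myeloid cells and more epithelial cells per gland cannot be told apart in a share.

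**Figure D3:**
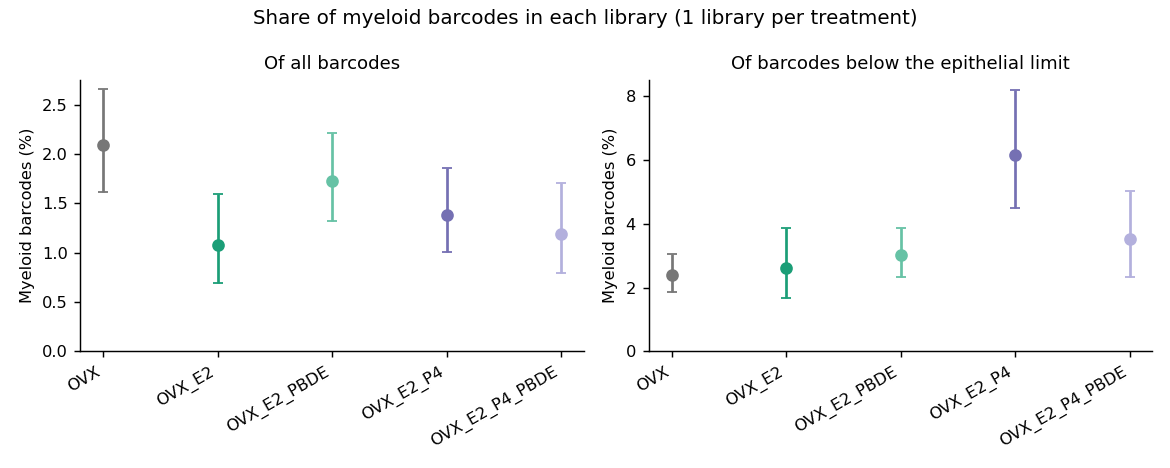
Myeloid barcodes as a percentage of all barcodes (left) and of barcodes below the epithelial limit (right) in each library, with exact binomial 95% intervals as bars. OVX is highest at left (2.09%), and OVX_E2_P4 is highest at right (6.14%).

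RNA of other cell types was measured in the same barcodes before any comparison. The 8 fibroblast genes summed to 3997 CPM in OVX, 1102 in OVX_E2, 1398 in OVX_E2_P4, 1231 in OVX_E2_PBDE and 1619 in OVX_E2_P4_PBDE, and fibroblast barcodes were 81.5% of OVX and 18.4 to 51.9% of the rest. Gsn, an actin-severing protein abundant in fibroblasts, led the difference with 2376 CPM in OVX and 461 to 644 in the others. The 8 epithelial genes summed to 282 CPM in OVX, 471 in OVX_E2, 762 in OVX_E2_P4, 652 in OVX_E2_PBDE and 666 in OVX_E2_P4_PBDE. The NK list summed to 4018 CPM in OVX_E2 and 462 to 702 in the others. Of the 400 Gzma UMIs in OVX_E2, 246 came from 1 barcode and all from 2, each with 13 marker UMIs. The B and plasma cell list summed to 1864 CPM in OVX, 20.5 in OVX_E2, 8.42 in OVX_E2_P4, 4151 in OVX_E2_PBDE and 2872 in OVX_E2_P4_PBDE, almost all of it Jchain from 4 barcodes. Neutrophil transcripts were at or near 0, with 0 UMIs of S100a8, Retnlg, Cxcr2, Camp and Ngp, and so were mast cell transcripts, with 0 of Cpa3, Mcpt4, Tpsb2, Fcer1a and Ms4a2. A count of 0 over all members allowed up to 2.16 CPM. The part of other cell types' RNA in the differences below was not tested, except where values without such barcodes are given.

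The first comparison, OVX_E2 with OVX, asked what estradiol did after ovariectomy. Lower in the OVX_E2 members were 9 of 13 passing chemokine genes and the 3 genes that passed in each of the interferon-induced list (of 15 measured) and the monocyte list (of 9). Both passing genes of the type 1 dendritic list stood higher, as did 1 of 2 of the proliferation list. The members also fell into different sub-clusters, with 28 of 65 in OVX and 3 of 24 in OVX_E2 in the Cd209a and Plac8 cluster and 6 of 65 and 12 of 24 in the mixed cluster. Of 1271 genes that reached 50 UMIs in both libraries together, 42 (3.30%) were at least 2-fold higher and 111 (8.73%) at least 2-fold lower, 12.0% in all. Scaling by the median ratio in place of the total moved the median of all genes by -0.18 (log2) and the split to 26 higher and 161 lower, from 27.5% to 13.9% higher, so lower calls depended in part on the scale. Without the top barcode of each gene, 142 of the 153 were still past 2-fold. In fibroblast barcodes, 14 of the 153 were past 2-fold the same way. Beside ratios, brackets give the exact 95% interval.

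Of the 13 passing chemokine genes 1 was at least 2-fold higher and 3 were within 2-fold, with a median log2 ratio of -1.24 beside -0.04 over all genes. Ccl6, a myeloid CC chemokine, was at 1944 CPM in OVX, 625 in OVX_E2, 551 in OVX_E2_P4, 1022 in OVX_E2_PBDE and 1132 in OVX_E2_P4_PBDE. Its OVX_E2 to OVX ratio was 0.322 (0.263 to 0.391), and 0.360 (0.283 to 0.454) for its neighbour Ccl9. Cxcl1, a neutrophil attractant, had 1475 CPM in OVX and 512 in OVX_E2 (0.348, 0.278 to 0.431). Ccl2, Ccl3, Ccl4, Ccl24, Ccr2 and Ccr7 completed the 9, with ratios from 0.308 to 0.466. In fibroblast barcodes Ccl2 was at 1965 CPM and Cxcl1 at 1129, above the 138 and 851 of all members, while Ccl6 was at 2.24 and Ccl9 at 1.79. Ccl5 was the exception, at 562 CPM in OVX and 1348 in OVX_E2 (2.40, 1.99 to 2.90). It is also a gene of NK cells, and 141 of its 263 UMIs in OVX_E2 came from 1 barcode. Among members with at least 20 marker UMIs its log2 ratio was -1.41, and among those with at least 5 C1q UMIs -1.10.

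All 3 interferon-induced genes that passed were lower. Bst2, tetherin, a restriction factor at the cell surface, was at 299 CPM in OVX, 25.6 in OVX_E2, 135 in OVX_E2_P4, 134 in OVX_E2_PBDE and 64.5 in OVX_E2_P4_PBDE. Its OVX_E2 value was the lowest and the OVX value the highest, a ratio of 0.0856 (0.0272 to 0.206) from 5 and 106 UMIs. Ifitm3, which blocks virus entry, was at 2019.8 CPM in OVX, 594 in OVX_E2, 1292 in OVX_E2_P4, 1207 in OVX_E2_PBDE and 1210.3 in OVX_E2_P4_PBDE (ratio 0.294, 0.240 to 0.359). Ifi27l2a gave 1096, 272, 690.3, 834 and 616 CPM in the same order (0.248, 0.182 to 0.331). The 3 genes shared their lowest value in OVX_E2, and in fibroblast barcodes their log2 ratios were 0.35, 0.14 and 0.53. All 3 were also transcripts of fibroblasts, with Ifitm3 at 1927 CPM in fibroblast barcodes and 1343 in all members, Ifi27l2a at 1619 and 775, and Bst2 at 205 and 154. Fibroblast RNA in the members fell between the same libraries (3997 and 1102 CPM of the list), and its part in the values of these genes was not tested.

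Of the monocyte list 3 of 3 passing genes were lower, Ly6c2, Plac8 and Ccr2. Ly6c2, a surface protein of inflammatory monocytes, was at 364 CPM in OVX, 41.0 in OVX_E2, 37.9 in OVX_E2_P4, 21.6 in OVX_E2_PBDE and 179 in OVX_E2_P4_PBDE (0.113, 0.0476 to 0.228). Ly6c1, a closely related neighbour with which reads may be shared, had 483 CPM in OVX and 51.2 in OVX_E2 (0.106, 0.0500 to 0.200). Plac8 was at 791 and 241 CPM (0.305, 0.219 to 0.416). Plac8 and Ly6c1 were higher in fibroblast barcodes, at 939 CPM against 480 in all members and 1797 against 208, and had a UMI in 73.7% and 88.2% of these once thinned, against 30.8% and 24.9% of thinned members. Ly6c2 was at 12.8 CPM in fibroblast barcodes and 130.3 in members. The part of fibroblast RNA in these values was not tested. Ly6c2 in OVX came from 12 of 65 barcodes and in OVX_E2 from 1 of 24, and fewer cells of a type and less RNA per cell cannot be told apart in such sums. Cd209a was at 559 and 108 CPM (0.192, 0.116 to 0.302). Retnla was at 7302 CPM in OVX and 2567 in OVX_E2 (0.352, 0.319 to 0.387), and Lyz1 at 3418 and 1189.

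Among cytokines, 4 of 10 passing genes were lower and 0 higher, with a median of -0.77. Il1a was at 149.7 CPM in OVX and 46.1 in OVX_E2 (0.308, 0.134 to 0.630), and Tnf at 144 and 61.5 (0.427, 0.207 to 0.812). Il1b, the most abundant, stood at 2051 CPM and 1717, within 2-fold. Immediate early and dissociation stress genes, which tissue digestion can induce, were lower for 4 of 17 with a median of -0.70. Among them Egr1 had a ratio of 0.417 (0.243 to 0.684) and Atf3 one of 0.387 (0.211 to 0.670). Their part in the cytokine and chemokine values was not tested. The fibroblast list was lower for 4 of 5 passing genes (median -1.33), with Gsn at 0.194 (0.154 to 0.242) in members and at a log2 ratio of -0.91 in fibroblast barcodes.

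Of the genes lowest by rule, Jchain, the joining chain of secreted antibodies, was at 1768 CPM in OVX. Of its 626 UMIs there, 625 came from 1 barcode, and OVX_E2 had 4 UMIs in 4 barcodes. Without the top barcodes its log2 ratio turned from -6.11 to 1.97, on too few UMIs to give a direction. Notch2, a Notch receptor, was at 141 and 10.2 CPM (0.0726, 0.00855 to 0.276, from 50 and 2 UMIs). In fibroblast barcodes it was at 88.5 CPM against 64.1 in all members, with a log2 ratio of -0.81. Ctsl, cathepsin L, was at 195 and 20.5 CPM (0.105, 0.0279 to 0.282). Lpl, lipoprotein lipase, was the 1 lower gene of 6 in the lipid list, at 389.8 and 66.6 CPM (0.171, 0.0887 to 0.302). Both were higher in fibroblast barcodes, Ctsl at 1036 CPM against 102 in all members and Lpl at 1335 against 179, and the part of fibroblast RNA in the 3 genes was not tested.

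Of the proliferation list 1 of 2 passing genes was higher in OVX_E2, Stmn1, and Tubb5 was within 2-fold. Stmn1, a microtubule regulator of dividing cells, was at 107 CPM in OVX, 651 in OVX_E2, 156 in OVX_E2_P4, 244 in OVX_E2_PBDE and 272 in OVX_E2_P4_PBDE (6.06, 4.19 to 8.96). Others named for their high ratios were Hmgb2, at 240.1 and 1225 CPM (5.10, 3.97 to 6.61), and 2810417H13Rik, Hist1h2ap and Hmgn2 with 5.57, 3.91 and 3.67. Stmn1 in OVX_E2 was the highest of the 5 values and came from 10 of 24 barcodes. In fibroblast barcodes the log2 ratio of Stmn1 was 1.71 and that of Hist1h2ap 3.53, so these were higher there too. Without members that carried NK or B cell markers, the log2 ratio of Hist1h2ap was 0.77, under 2-fold. Both passing genes of the type 1 dendritic list were higher, Irf8 at 136 and 420.2 CPM (3.10, 2.14 to 4.52) and Naaa, a lysosomal amidase, at 119 and 333 (2.81, 1.88 to 4.24). Gzma, a granzyme of NK cells, had the highest ratio of all from the 2 barcodes named above.

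Class II genes stayed within 2-fold. Leaving out the genes of the rule, of the macrophage list 0 of 4 passing genes, of complement 0 of 2 and of class II presentation 0 of 8 were past 2-fold either way, with medians of 0.084, -0.48 and -0.23. Over all genes 12.0% were past 2-fold, so a count of 0 in lists this small does not set them apart. C1qa, a gene of the rule, was at 1136 CPM in OVX and 1076 in OVX_E2. Cd74 was at 31908 CPM in OVX and 26213 in OVX_E2, H2-Aa at 13065 and 11643.

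**Figure D4:**
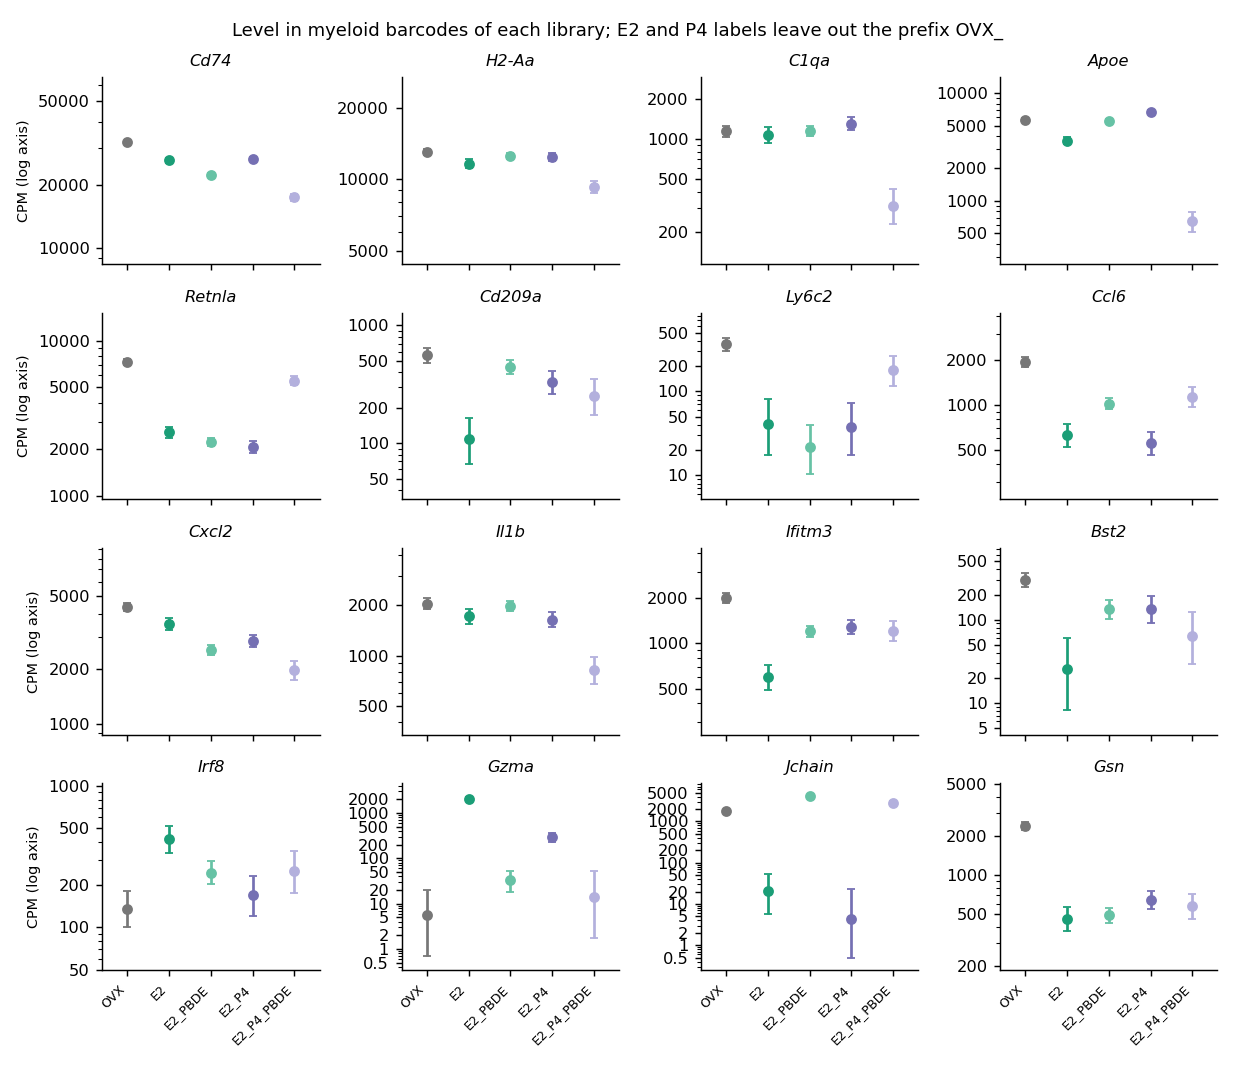
CPM of 16 genes in the members of each of the 5 libraries on logarithmic axes, with exact Poisson 95% intervals as bars and 1 library per point. Bst2 and Ifitm3 are lowest in OVX_E2 (25.6 and 594 CPM), C1qa and Apoe are lowest in OVX_E2_P4_PBDE (315 and 645 CPM), and the highest values of Gzma (OVX_E2) and Jchain (OVX_E2_PBDE) came almost wholly from 2 barcodes each.

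The second comparison, OVX_E2_P4 with OVX_E2, asked what progesterone added. Of 957 genes, 29 (3.03%) were at least 2-fold higher and 41 (4.28%) lower, 7.31% in all, and 62 of these 70 remained past 2-fold without the top barcode of each gene. This comparison and both others that use OVX_E2 share its 24 members, so their ratios are not independent of each other.

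The 2 passing interferon genes were higher in OVX_E2_P4, as were 1 of 2 passing genes of the monocyte list and 1 of 2 of the type 2 dendritic list. Lower were 2 of 2 NK genes, 1 of 2 of the proliferation list and 1 of 3 of the type 1 dendritic list (median -0.90). The members fell into different sub-clusters here too, with the mixed cluster at 12 of 24 in OVX_E2 and 8 of 43 in OVX_E2_P4 and the Cd209a and Plac8 cluster at 3 of 24 and 15 of 43. The interferon genes were Ifitm3 with a ratio of 2.17 (1.75 to 2.72) and Ifi27l2a with 2.54 (1.85 to 3.53), although both were within 2-fold without members that carried NK or B cell markers (log2 0.88 and 0.98). Cebpb, a transcription factor of inflammatory and monocytic cells, was at 409.6 CPM in OVX, 261 in OVX_E2, 981 in OVX_E2_P4, 689 in OVX_E2_PBDE and 895 in OVX_E2_P4_PBDE. It was lowest in OVX_E2 and highest in both progesterone libraries, with a ratio of 3.75 (2.76 to 5.19) here and a log2 ratio of 1.74 in fibroblast barcodes. S100a4, Plac8, Cd209a, Cd164 and Hspa1a were the other genes highest by rule, with ratios of 3.87, 2.99, 3.05, 2.99 and 2.85. Cd164 was at 943 CPM in epithelial barcodes against 125 in all members, and the part of epithelial RNA in it was not tested. Hspa1a is a heat shock gene of the stress list, of which 1 of 15 passing genes was higher.

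Of macrophage genes outside the rule, 0 of 4 were past 2-fold, beside 7.31% of all genes (median 0.055, beside -0.06 over all genes). Trem2 was at 28.2 CPM in OVX, 76.9 in OVX_E2, 177 in OVX_E2_P4, 138 in OVX_E2_PBDE and 0 in OVX_E2_P4_PBDE, where 0 allowed up to 21.5, and its ratio here was 2.30 (1.25 to 4.46). Cd63, a tetraspanin of late endosomes, was the 1 higher gene of 14 in the lysosome list outside the rule, at 690.3 CPM against 297 (2.32, 1.71 to 3.19). Mmp12, the macrophage elastase, was lower, at 384 CPM in OVX_E2 and 160.0 in OVX_E2_P4 (0.416, 0.274 to 0.623). Of class II presentation outside the rule 1 of 8 was past 2-fold, Ifi30, a lysosomal thiol reductase, at 366 CPM against 169 (2.17, 1.44 to 3.34). Ccl4 was higher by a ratio of 2.64 that came down to a log2 ratio of 0.42 without its top barcode.

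The lowest genes were Gzma, Ccl5, Hmgn2, Ranbp1, Stmn1 and Hist1h2ap, of which Gzma and Ccl5 belong to the NK list and Stmn1 to the proliferation list. Stmn1 had a ratio of 0.239 (0.161 to 0.348) and Ranbp1, a cofactor of nuclear transport, one of 0.225 (0.143 to 0.345). Irf8 was at 168 CPM against 420.2 (0.401, 0.267 to 0.592). Without the members that carried NK or B cell markers, 19 genes in place of 41 were at least 2-fold lower.

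The third comparison, OVX_E2_PBDE with OVX_E2, asked what PBDEs added under estradiol. Of 1394 genes, 45 (3.23%) were at least 2-fold higher and 35 (2.51%) lower, 5.74% in all, and 69 of the 80 remained without the top barcode of each gene. Higher in OVX_E2_PBDE were 3 of 3 passing interferon-induced genes, 2 of 3 of the type 2 dendritic list and 3 of 14 chemokine genes, while 1 of the 14 was lower (median 0.30). Sub-clusters differed here as well. The Cd209a and Plac8 cluster held 3 of 24 in OVX_E2 and 15 of 61 in OVX_E2_PBDE, and the mixed cluster 12 of 24 and 21 of 61.

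All 3 passing interferon genes were higher, with ratios of 5.23 (2.12 to 16.7) for Bst2, 3.07 (2.30 to 4.17) for Ifi27l2a and 2.03 (1.66 to 2.50) for Ifitm3. Their OVX_E2_PBDE values lay between those of OVX_E2 and OVX. Cd209a, a lectin of type 2 dendritic cells, was at 447 CPM against 108 (4.15, 2.65 to 6.85), and 2 of 3 passing genes of its list were higher. Ccl2 had a ratio of 3.10 (1.65 to 6.46), Ccl7 one of 2.61 (1.71 to 4.16) and Ccr7, the homing receptor of mature dendritic cells, one of 2.58 (1.26 to 5.93). Ccl2 and Ccl7 were far higher in fibroblast barcodes, at 1965 and 1773 CPM against 138 and 178 in all members, and their log2 ratios there were 0.71 and 0.41. The part of fibroblast RNA in both was not tested. Cxcl3 was higher by 7.73 (2.51 to 38.6), from 55 and 3 UMIs. Mrc1 was at 121 CPM against 46.1 (2.62, 1.29 to 6.03), and Cebpb at 689 against 261 (2.64, 1.96 to 3.62), with a log2 ratio of 1.57 in fibroblast barcodes.

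Other high values rested on 1 or 2 barcodes. Jchain was at 4019 CPM against 20.5, of which 2 barcodes gave 1017 and 842 of 1861 UMIs. Mzb1, a chaperone of antibody assembly, had 52 UMIs in 2 barcodes and 0 in OVX_E2, at least 7.30-fold higher against the floor of 3 counts in that library. Fabp4, a fatty acid carrier, owed 74 of 81 UMIs to the barcode with endothelial genes, and without the top barcodes its log2 ratio turned from 2.79 to -0.28. Igfbp7 owed 104 of 129 to the same barcode and kept a log2 ratio of 1.83.

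Lower in OVX_E2_PBDE were Gzma, Nkg7, Ccl5, Rgs1, Mmp12 and Stmn1. Ccl5 turned to a log2 ratio of 0.66 among members with at least 20 marker UMIs, and 141 of its 263 UMIs in OVX_E2 came from 1 barcode. All 3 passing NK genes were lower, and without members that carried NK or B cell markers 15 genes in place of 35 were at least 2-fold lower. Mmp12 was at 143 CPM against 384 (0.371, 0.262 to 0.523) and Rgs1, a regulator of chemokine receptor signalling, at 279 against 769 (0.362, 0.284 to 0.462). Of class II genes outside the rule 0 of 8 were past 2-fold, beside 5.74% of all genes, with a median of -0.0036. C1qa was at 1145 CPM against 1076.

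The fourth comparison, OVX_E2_P4_PBDE with OVX_E2_P4, asked the same under estradiol and progesterone. Apoe and 5 of 15 passing lysosome genes outside the rule stood lower. Of the macrophage list 0 of 3 genes outside the rule were past 2-fold, while the 1 passing gene of the ductal macrophage list was lower. Of 825 genes, 23 (2.79%) were at least 2-fold higher and 40 (4.85%) lower, 7.64% in all, and 61 of the 63 remained without the top barcode of each gene. The comparison shares no library with the preceding one.

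C1q and Ctss are genes of the rule, and their values are given as a description of the members. C1qa was at 1296 CPM in OVX_E2_P4 and 315 in OVX_E2_P4_PBDE, a ratio of 0.243 (0.173 to 0.334). C1qb had 0.150 (0.0934 to 0.230) and C1qc 0.137 (0.0796 to 0.221). In the other 4 libraries C1qa lay between 1076 and 1296 CPM, and 1 barcode held 33 of the 44 C1qa UMIs of OVX_E2_P4_PBDE. Apoe was at 5630.1 CPM in OVX, 3603 in OVX_E2, 6668 in OVX_E2_P4, 5486 in OVX_E2_PBDE and 645 in OVX_E2_P4_PBDE, a ratio of 0.0967 (0.0773 to 0.120). In fibroblast barcodes the log2 ratio of Apoe was 0.04 and that of C1qa 0.12. Ctss was at 1692 and 401 CPM (0.237, 0.176 to 0.314).

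The lysosome list without Ctss had 5 of 15 passing genes lower and 0 higher, with a median of -0.60 beside 0.05 over all genes. Ctsb, cathepsin B, was at 905 CPM in OVX_E2_P4 and 208 in OVX_E2_P4_PBDE (0.229, 0.150 to 0.339). Lgmn, legumain, was at 429 and 78.8 (0.183, 0.0888 to 0.342), and Cd63 at 690.3 and 107 (0.156, 0.0851 to 0.264). Ctsz had a ratio of 0.388. Outside the rule, 0 of 2 complement genes and 0 of 3 genes of the macrophage list were past 2-fold, beside 7.64% of all genes. Their medians were 0.76 and -0.64. The ductal macrophage list had 1 passing gene, which was lower (log2 ratio -1.98), and summed to 1065 CPM in OVX_E2_P4 and 430 in OVX_E2_P4_PBDE.

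The number of macrophage-like barcodes differed too, at 16 of 43 in OVX_E2_P4 and 3 of 28 in OVX_E2_P4_PBDE. C1q genes and Apoe are among the genes that set that cluster apart. Within that cluster C1qa was at 3830 CPM in OVX_E2_P4 and 2569 in OVX_E2_P4_PBDE, Apoe at 18877 and 4781, and Ctsb at 2089 and 285. Those 3 barcodes held 36 C1qa UMIs, and 1 of them held 389 of the 392 Jchain UMIs of its library, which made Jchain the highest gene of the comparison. Fewer macrophages and less of these transcripts per macrophage cannot be told apart on 3 barcodes.

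Il1b was at 1646 CPM in OVX_E2_P4 and 816 in OVX_E2_P4_PBDE (0.496, 0.399 to 0.613), and Il1rn, the interleukin 1 receptor antagonist, at 177 and 64.5 (0.365, 0.156 to 0.760), and they were the 2 lower genes of 5 among cytokines. Chemokines went both ways. Ccl6, Ccl9 and Ccl5 were higher, with ratios of 2.05 (1.62 to 2.61), 2.37 (1.73 to 3.26) and 2.06 (1.47 to 2.90). Cxcl1 and Cxcl16, a membrane-bound chemokine of macrophages, were lower with 0.416 (0.303 to 0.562) and 0.344 (0.201 to 0.560).

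Retnla, Lyz1 and Fn1 were higher. Lyz1 and Fn1 were among the 6 genes highest by rule, while Retnla was not and is given as a leading gene of its cluster. Retnla was at 7302 CPM in OVX, 2567 in OVX_E2, 2079 in OVX_E2_P4, 2227 in OVX_E2_PBDE and 5536 in OVX_E2_P4_PBDE, a ratio of 2.66 (2.37 to 2.99). Lyz1 had 7.30 (5.73 to 9.38) and Fn1, fibronectin, 3.63 (2.65 to 5.04), the latter at 248 and 902 CPM. Fn1 was at 2015 CPM in fibroblast barcodes against 482 in all members and Ly6c1 at 1797 against 208, the fibroblast list in the members was at 1398 and 1619 CPM, and its part in both genes was not tested. Retnla came from 6 of 43 and 11 of 28 barcodes. Clec4e, the receptor Mincle, was at 75.8 and 286 CPM (3.78, 2.12 to 7.01), Ly6c1 at 105 and 315 (2.99, 1.79 to 5.11), and Hist1h2ap at 164 and 487 (2.97, 1.97 to 4.52). Interferon-induced genes were within 2-fold for both genes that passed, with Ifitm3 at 1292 and 1210.3 CPM.

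Class II presentation was past 2-fold for 0 of 8 passing genes outside the rule, beside 7.64% of all genes, with a median of -0.34. Cd74 was at 31908 CPM in OVX, 26213 in OVX_E2, 26515 in OVX_E2_P4, 22304 in OVX_E2_PBDE and 17453 in OVX_E2_P4_PBDE, and H2-Aa at 13065, 11643, 12405, 12539 and 9296. OVX_E2_P4_PBDE was lowest for both, within 2-fold of every other library. The whole list, which includes Ctss of the rule, summed to 67702 CPM in OVX, 57699 in OVX_E2, 60372 in OVX_E2_P4, 54835 in OVX_E2_PBDE and 41911 in OVX_E2_P4_PBDE.

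**Figure D5:**
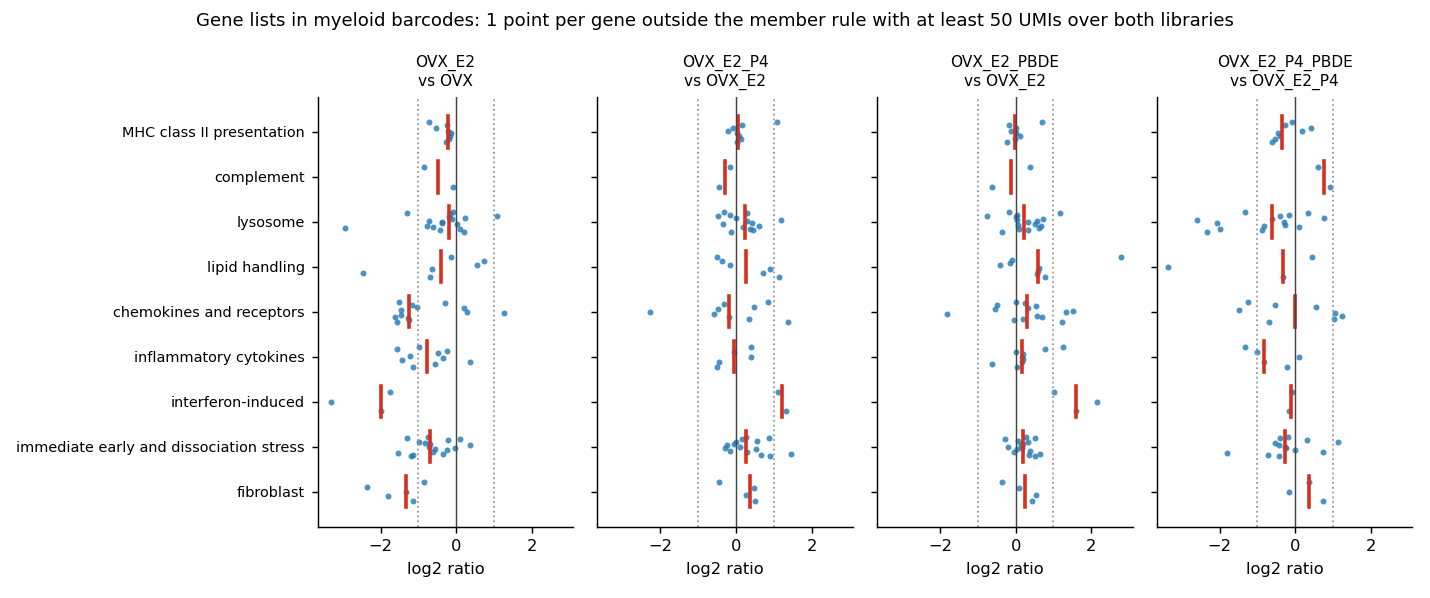
Log2 ratio of CPM in the members for 9 gene lists in the 4 comparisons, with 1 point for each gene outside the member rule that reached 50 UMIs in its 2 libraries together (the vertical offset of points has no meaning), red bars at medians and dotted lines at 2-fold. Chemokine and interferon-induced genes lie left in OVX_E2 against OVX (medians -1.24 and -1.99), and lysosome genes lie left in OVX_E2_P4_PBDE against OVX_E2_P4 (-0.60), while class II presentation has 1 gene past 2-fold, Ifi30 in OVX_E2_P4 against OVX_E2.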

How the data were processed

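Single cells of digested glands were captured with the 10x Genomics 3′ v2 chemistry, and the authors processed reads with Cell Ranger 2.0.0 against mm10. The deposited values are raw UMI counts per gene and barcode, not normalized, with 5 libraries of 2233 to 3536 barcodes. All 14344 barcodes entered, and members were chosen by the rule given in the report. The members and gene lists were chosen with earlier results of these data known.

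Counts of members were summed by library and divided by their total (CPM). A ratio past 2-fold, with 1 UMI added to each sum, was called among genes that reached 50 UMIs in both libraries together. CPM have exact Poisson, shares Clopper-Pearson and ratios conditional binomial intervals (Python 3.11.15, scipy 1.17.1). Simulated counts without variation between barcodes were used to try the 2-fold call only, and the intervals were not tried. With 1 library per treatment no test was run. Named were the 6 highest and 6 lowest ratios of each comparison outside the member rule, and in each list the 4 most abundant genes or any gene past 2-fold, of which the text gives a part. Members were clustered in Seurat 5.3.0 (R 4.3.3; log-normalization to 10000, 2000 variable genes, 10 principal components, resolution 0.5). Clusters are described by the 10 genes of largest fold. Gates for comparison used the same limits on collagen and epithelial genes: 6437 fibroblast, 6004 epithelial and 55 T cell barcodes. No doublet caller was run. The limits removed barcodes with Epcam, Krt18, collagen or Cd3 UMIs above them but not every mixed barcode, and 0 members had over 3 times their library's median UMIs. Alternatives were marker sums of 5 or 20, stricter mitochondrial and collagen limits, other minimums, scalings and pseudocounts, and C1q-positive members alone. Leaving out members with NK or B cell markers and leaving out the top barcode of each gene were chosen after seeing the data. Gene positions are from GENCODE vM21. Of the list symbols, 7 had no match in the deposited annotation and were not used here. A gene of the lists is counted in them but not reported here by name.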

Additional observations from a re-analysis of the deposited data

Results flagged for a closer look

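PBDE comparisons went past 2-fold in opposite directions under estradiol alone and under estradiol with progesterone for 6 genes of the members, a difference between groups that was not tested. Of 818 genes that passed in both comparisons, 10 were past 2-fold in both. The log2 ratios without and with progesterone were -1.19 and 2.85 for Lyz1, -1.82 and 1.04 for Ccl5, -1.01 and 1.35 for Hmgn2, -1.13 and 1.19 for Ranbp1, -1.15 and 1.37 for Psmb9, an immunoproteasome subunit, and 1.17 and -1.30 for Etv3, a transcriptional repressor. The direction of Ccl5 without progesterone turned among members with at least 20 marker UMIs (0.66), and 141 of its 263 UMIs in OVX_E2 came from 1 barcode. Psmb9 and Etv3 lie outside the rule for named genes and were chosen after their values were seen. Lyz1 was at 1189 CPM in OVX_E2, 349 in OVX_E2_P4, 520.5 in OVX_E2_PBDE and 2549.6 in OVX_E2_P4_PBDE, and 1 barcode gave 196 of its 241 UMIs in OVX_E2_PBDE. Etv3 was at 97.4, 173, 229 and 64.5 CPM and Psmb9 at 369, 101, 166 and 265 CPM in the same order. With 1 library per treatment, no sample could be compared with others of its group.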

How the results depend on the processing

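With 1 library per treatment and 24 to 65 members each, depth limited the results to genes of at least 50 UMIs, and no replicate could be left out. No paired analysis was possible because each group had 1 library. Of 30 shares under the alternatives 29 moved by less than their counting interval, and that of OVX_E2_P4_PBDE was 0.678% at a marker sum of at least 20. The C1q cluster kept its 53 barcodes at resolutions of 0.3 and 1.0 and with 15 principal components, where 1 more joined it, but resolution 1.0 gave 6 sub-clusters in place of 4, so the others depend on the setting. Of gene ratios, under the alternatives that could change them, 649 kept their side of 2-fold, 55 came within it and 5 turned. For OVX_E2 against OVX, Jchain turned without its top member (1.97, on few remaining UMIs). In the same comparison Ccl5 turned at a marker sum of at least 20 (-1.41) and in C1q-positive members (-1.10). For OVX_E2_PBDE against OVX_E2, Fabp4 turned without its top member (-0.28) and Ccl5 at a marker sum of at least 20 (0.66). Genes higher and lower by 2-fold in the 4 comparisons, in the order of the report, were 172 and 295, 86 and 177, 150 and 160, and 114 and 103 at a minimum of 20 UMIs, and 2132 and 1201, 1238 and 2392, 767 and 2607, and 2361 and 871 with no minimum, where more genes of few UMIs are counted. In C1q-positive members alone, where fewer genes passed, they were 14 and 37, 6 and 13, and 22 and 10, with 11 higher in the fourth. Median-ratio scaling gave 26 higher genes in the first. At a marker sum of at least 20, 27 were lower in the second and 18 in the third, and without members carrying NK or B cell markers 19 and 15.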

Other observations

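Receptors of estradiol and progesterone had few UMIs in the myeloid barcodes, and Ahr, the aryl hydrocarbon receptor, was at a higher CPM there than in fibroblast barcodes. Esr1, the estrogen receptor alpha, had 10 UMIs over all 221 members and a UMI in 2.71% of thinned members, against 11.9% of thinned fibroblast barcodes. Pgr, the progesterone receptor, had 9 UMIs and 2.71% against 1.79%. Esr2 and Gper1 had 0, which allowed up to 2.16 CPM. Of 12 nuclear and hormone receptors, 0 reached 50 UMIs in any comparison. Ahr had 93 UMIs, at 66.9 CPM against 5.14 in fibroblast and 25.6 in epithelial barcodes, and a UMI in 16.3% of thinned members against 1.41% of fibroblast barcodes. By library it was at 93.2 CPM in OVX, 46.1 in OVX_E2, 67.4 in OVX_E2_P4, 62.6 in OVX_E2_PBDE and 43.0 in OVX_E2_P4_PBDE. Of the 7 genes in the list of its targets, Cyp1a1, Ahrr and Aldh3a1 had 0 UMIs in all libraries, those fed PBDEs included. Nfe2l2 had 301 UMIs, Tiparp 102 (51.2 to 88.4 CPM by library), Cyp1b1 7 and Nqo1 2, and the 1 that passed in each comparison was within 2-fold.

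Of the growth factor and receptor list, 1 of 5 passing genes was past 2-fold in OVX_E2 against OVX, the lower Tgfb1, beside 12.0% of all genes. The other comparisons had 0 of 4, 0 of 5 and 0 of 4, in the order of the report, beside 7.31%, 5.74% and 7.64% of all genes. Counts this small do not set the list apart from all genes. Tgfb1 was at 214 CPM over all members, against 17.7 in fibroblast, 30.8 in epithelial and 200.02 in T cell barcodes. By library it was at 359 CPM in OVX, 149 in OVX_E2, 198 in OVX_E2_P4, 173 in OVX_E2_PBDE and 107 in OVX_E2_P4_PBDE, and its ratio of OVX_E2 to OVX was 0.414 (0.267 to 0.624). Areg, a ligand of the epidermal growth factor receptor, was at 71.7 to 145 CPM by library, against 894 in epithelial barcodes. Csf1, the growth factor of macrophages, had 0 to 6 UMIs per library, and Igf1 1 to 7. The proliferation list summed to 672 CPM in OVX, 1845 in OVX_E2, 674 in OVX_E2_P4, 1039 in OVX_E2_PBDE and 1124 in OVX_E2_P4_PBDE. Mki67 had 3 to 16 UMIs per library.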
